A study of Mus musculus with 12 samples.

Results

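Olfactory receptor (Olfr) genes were examined in copy-number tables of the DNA of a pair of primary murine pancreatic ductal adenocarcinoma (PDAC) lines. The members were all names that begin with Olfr and a digit in the autosomal segments of both lines. There were 989 of them among 21139 autosomal names, the same 989 in each line, on 16 of the 19 autosomes. The tables came from whole-exome sequencing (WES) of 15376T and 14837T, 1 library for each. The libraries are labelled WES-15376T and WES-14837T, and are called 15376T and 14837T in what follows. Both lines came from tumors of C57BL/6 mice with engineered alleles that included ROSA26 rtTA-IRES-GFP, p48-Cre and Trp53 L/+, where Cre acts in cells of the p48 lineage. The lines were grown in doxycycline and no other treatment before WES is given, each is a single cultured line, and the labels give the genotype of both as WT. DNA tables hold no marker of cell type, so the label PDAC was not checked against any. The other samples of the series, 9 of RNA among 12 in all and 1 of wild-type tail DNA, were left out. With 1 library per line there was no replicate, so no test was made and every difference below compares these libraries only.

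Olfactory receptors are G protein-coupled receptors of the sensory neurons of the nose. Each mature neuron expresses a single allele of a single receptor gene, and a bound odorant acts through a G protein and adenylyl cyclase to open a cyclic nucleotide-gated channel. The family arose by repeated local duplication, so its genes stand in dense clusters of close relatives, and each gene usually has its whole coding sequence in 1 exon. No source used here describes a role of the family in these lines, and DNA tables say nothing of expression.

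Of the 989 names, 982 matched a RefSeq symbol on GRCm38.p6, and 981 had a position inside their segment; the position listed for Olfr100 lay outside its segment and was not used. RefSeq called 970 of the 981 protein-coding and 10 transcribed pseudogenes. Their length had a median of 951 bases, and 805 (82.1%) were between 800 and 1100 bases long, the size of a single coding exon of this family. Of 1104 protein-coding autosomal Olfr symbols in RefSeq, 971 (88.0%) were in the tables, against 17979 of 19557 other protein-coding symbols (91.9%). Of 315 Olfr pseudogenes, 10 (3.17%) were.

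The start of these genes is shown for near copies, because the assignment of reads to such genes is uncertain. Likeness over the coding exons, where most reads were counted, was not measured. RefSeq windows of 300 bases, from 250 before to 50 after the annotated start, were found for 830 of the members (834 windows). In 598 windows (71.7%) the annotated start was the A of an ATG, against 4.11% of 32017 windows of other genes, so for most members the annotated gene begins at its start codon. The median GC content was 35.3% (quartiles 31.7% and 39.7%) against 53.0% (46.3% and 62.0%) in other windows. The letters TATAAA were found on either strand in 40.8% of the member windows and in 12.9% of the others, and TAATTA, the core of homeodomain sites such as that of Lhx2, in 19.1% and 4.93%. The palindromic core of Ebf sites was found in 0.600% and 0.912%. TATAAA and TAATTA hold only A and T, and the part of the lower GC content in their shares was not tested. Most member windows are placed on the start codon, so they are not known to hold the promoter. In 8 pairs of members at least 270 of the 300 bases were equal, and in 2 of these pairs all 300 were.

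In the pairs below, with build GRCm38.p6, bases that differ between the members of a pair are in capitals. Olfr596 (chr7:103309473-103309772, plus strand) and Olfr603 (chr7:103383951-103384250, minus strand) had the same window, so it is shown once. Olfr723 (chr14:49929519-49929818, minus strand) and Olfr724 (chr14:49961047-49961346, minus strand) differed at 7 bases, and Olfr679 (chr7:105085468-105085767, plus strand) and Olfr681 (chr7:105121209-105121508, plus strand) at 8.
Olfr596 and Olfr603: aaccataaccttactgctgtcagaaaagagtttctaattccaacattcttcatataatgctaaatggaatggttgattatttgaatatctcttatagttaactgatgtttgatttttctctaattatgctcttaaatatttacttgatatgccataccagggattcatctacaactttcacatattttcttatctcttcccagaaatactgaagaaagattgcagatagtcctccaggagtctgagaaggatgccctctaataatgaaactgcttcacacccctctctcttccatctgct
Olfr723: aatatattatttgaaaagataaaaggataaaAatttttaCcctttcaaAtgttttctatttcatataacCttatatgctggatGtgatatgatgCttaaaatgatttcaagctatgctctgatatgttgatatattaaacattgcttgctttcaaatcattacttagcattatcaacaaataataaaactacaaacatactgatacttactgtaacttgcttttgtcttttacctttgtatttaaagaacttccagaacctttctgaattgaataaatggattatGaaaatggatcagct
Olfr724: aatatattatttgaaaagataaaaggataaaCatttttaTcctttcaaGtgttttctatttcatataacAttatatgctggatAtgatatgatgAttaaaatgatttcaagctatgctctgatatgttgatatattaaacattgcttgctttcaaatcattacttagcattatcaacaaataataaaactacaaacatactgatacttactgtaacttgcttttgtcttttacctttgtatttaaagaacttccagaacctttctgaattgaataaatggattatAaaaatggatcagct
Olfr679: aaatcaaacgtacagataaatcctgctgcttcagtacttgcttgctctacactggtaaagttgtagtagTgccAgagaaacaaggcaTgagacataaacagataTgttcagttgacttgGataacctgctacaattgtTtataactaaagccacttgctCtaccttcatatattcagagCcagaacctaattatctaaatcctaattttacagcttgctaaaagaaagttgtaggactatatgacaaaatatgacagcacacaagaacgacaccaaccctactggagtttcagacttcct
Olfr681: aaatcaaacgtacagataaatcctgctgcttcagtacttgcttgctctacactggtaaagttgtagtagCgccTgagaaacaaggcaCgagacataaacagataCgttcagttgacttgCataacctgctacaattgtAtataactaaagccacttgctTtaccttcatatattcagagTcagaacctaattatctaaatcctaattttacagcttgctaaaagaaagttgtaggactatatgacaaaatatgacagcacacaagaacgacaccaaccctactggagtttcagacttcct

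The 981 positioned genes fell into 46 clusters when neighbours up to 1 Mb apart were joined. Of these, 20 clusters had at least 10 genes and held 894 of the genes, and 8 clusters were a single gene. All cluster spans together came to 33.4 Mb, 1.40% of the length covered by segments. The largest was the chromosome 2 cluster from Olfr987 to Olfr1274, with 219 genes in 5.07 Mb. It was followed by Olfr543 to Olfr692 on chromosome 7 (125 genes in 2.89 Mb) and Olfr160 to Olfr986 on chromosome 9 (91 genes in 2.48 Mb). By chromosome, chromosome 2 held 273 members, chromosome 7 held 209 and chromosome 9 held 131.

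The question asked of each cluster was whether the line had gained or lost it. The authors' integer call was used, which is lost below a log2 ratio of -0.25 and gained above 0.2, where the log2 ratio sets the coverage of a segment against a reference. Every gene of a segment shares its values, so counts of genes are counts of a few segments: the members lay in 31 segments in 15376T and 36 in 14837T. Among segments called at 2 copies the log2 ratio had an SD of 0.09 in 15376T and 0.10 in 14837T.

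In 15376T, 453 members (45.8%) were called lost, 22 (2.22%) gained, and the others neutral. The background over 20952 autosomal names was 30.0% lost and 9.09% gained. In 14837T, 309 members (31.2%) were called lost and 174 (17.6%) gained, against a background of 28.8% and 21.4%. The members' share lost thus stood above the background in 15376T and near it in 14837T. In 15376T a single chromosome 2 segment at a log2 ratio of -0.25 held 157 of the lost members. At a limit of 0.3 on the absolute log2 ratio that segment was not called, and 296 members were lost.

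**Figure D1:**
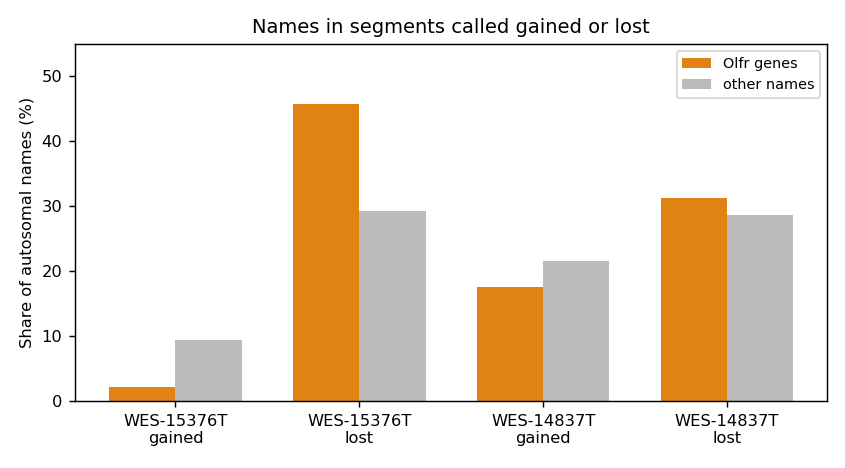
Share of autosomal names in segments called gained or lost, in percent (y axis), for Olfr genes (orange bars) and other names (grey bars) in each line, with 1 library per line and no error bars. The lost bar of WES-15376T stands at 45.8% for Olfr genes and 29.3% for other names, and in WES-14837T the bars stand at 31.2% and 28.7%.

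The call differed between the lines for 338 members (34.2%), against 29.3% of all names. The chromosome 2 segment held 157 of the 338, and the count fell to 101 at a limit of 0.3, to 131 at 0.5 and to 166 with the log2 ratios recentred on the autosomal median. Both lines had 285 members lost (28.8%, against 22.1% of other names), 22 gained (2.22% against 7.10%) and 344 neutral (34.8% against 41.8%). Of the others, 162 were lost in 15376T and neutral in 14837T (16.4%, against 5.94% of other names). Another 146 were neutral in 15376T and gained in 14837T (14.8% against 13.3%). In the same order, 24 were neutral and lost (2.43% against 6.21%), and 6 were lost and gained (0.607% against 1.22%). No member was gained in 15376T and neutral or lost in 14837T, while 391 (1.96%) and 74 (0.371%) other names were.

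**Figure D2:**
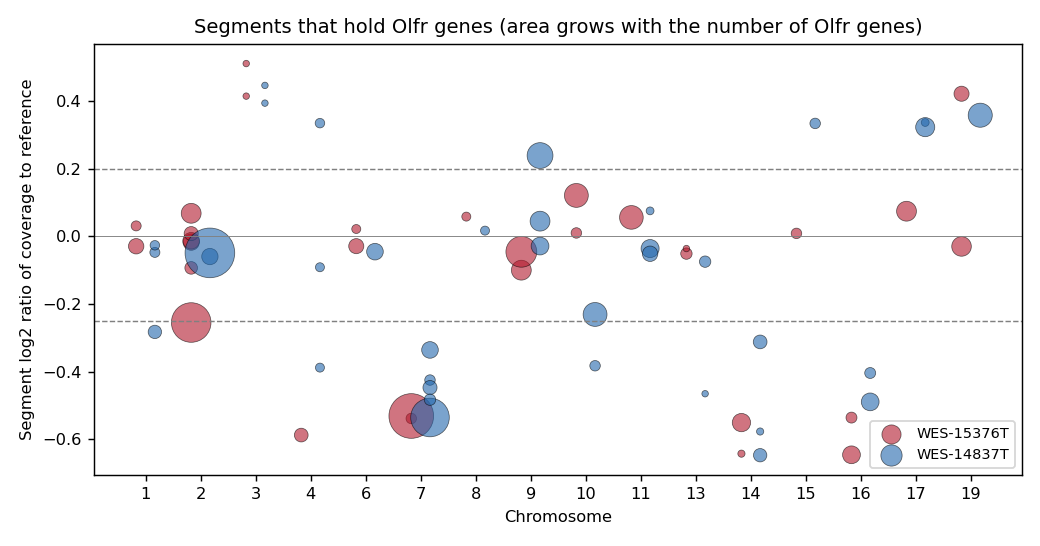
Log2 ratio of coverage to reference (y axis) of each segment that holds Olfr genes, by chromosome (x axis), in WES-15376T (red) and WES-14837T (blue); the area of a point grows with its number of Olfr genes, and dashed lines mark the limits of the calls at -0.25 and 0.2. The red point of 157 genes on chromosome 2 lies on the lower limit, and the points of chromosomes 7, 14 and 16 lie below it in both lines.

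On chromosomes 7, 14 and 16 all members were lost in both lines. The 209 members of chromosome 7 lay in 2 segments at -0.54 and -0.53 in 15376T and in 5 segments from -0.54 to -0.34 in 14837T. The 33 of chromosome 14 had log2 ratios of -0.64 to -0.55 and -0.65 to -0.31. The 38 of chromosome 16 had -0.65 to -0.54 and -0.49 to -0.40. The other names of these chromosomes were called lost alike, at 100% on chromosomes 7 and 16 in 15376T and 87.1% on chromosome 14, and on all 3 chromosomes at 96.4% or more in 14837T. On chromosome 7 of 14837T the median log2 ratio was -0.54 over members against -0.42 over other names, though 25 members stood at -0.34. On chromosome 14 of 14837T the members were split: 15 stood at -0.65, 2 at -0.58 and 16 at -0.31. The median over other names there was -0.41. In this line 149 members made up most of the 217 names of a chromosome 7 segment at -0.54. Likewise 15 made up most of the 26 names of a chromosome 14 segment at -0.65. Olfr78, a receptor also known from blood vessels and kidney, and Olfr544, known from work on metabolic tissues, were among the lost members of chromosome 7. So were Olfr2 (I7) and Olfr17 (P2), model receptors of odorant response and axon targeting.

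On chromosome 2 the names called lost in 15376T were mostly receptors. In 15376T the segment chr2:85887845-89340320 held 159 names, of which 157 were Olfr genes, from Olfr1024 to Olfr1233. It was called at 1 copy with a log2 ratio of -0.25, while its neighbours stood at -0.01 and 0.07. Only 0.56% of the other names of the chromosome were called lost. The read depth of the segment was 46.9, against 49.8 and 54.0 in the neighbours. Over all segments at 2 copies it was 46.0, a difference of 0.03 on the log2 scale. This depth is not divided by the reference, and listed Olfr genes ran above other genes in it (below), so it is no copy number. The B-allele frequency of the segment (BAF, the share of reads with the variant allele at variant sites) was 0.29, beside 0.31 in each neighbour. Olfr73 (mOR-EG), a receptor for eugenol, lay in this segment. In 14837T no border fell there, and 249 members, these 157 included, lay in a single segment at -0.05 with a BAF of 0.21. The call of these 157 members rests on a log2 ratio of -0.255 against a limit of -0.25, in a stretch with 2 other names. The SD of 0.09 across segments at 2 copies is the spread of segments that the same limits selected. It is not the error of a single segment, which was not measured.

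Chromosome 9 held another call made up mostly of receptors. In 14837T the segment chr9:37552454-39485258 held 65 Olfr genes among 71 names. It was called gained with a log2 ratio of 0.24 and a BAF of 0.13. Its depth was 61.9 against 47.5 over segments at 2 copies (0.38 on the log2 scale), again not divided by the reference and no copy number. At a limit of 0.3 these 65 were not called, and the members gained in 14837T went from 174 to 109. It began before Olfr160 (M72) and Olfr151 (M71), a pair of closely related receptors much used in studies of receptor choice. It ended inside the cluster, between Olfr955 and Olfr957, beyond which the log2 ratio was -0.03. In 15376T all 131 members of chromosome 9 were neutral, at -0.10 and -0.05, although 64.6% of the other names of the chromosome were called lost.

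On chromosome 1 the 15 members from Olfr433 to Olfr220 stood at -0.28 in 14837T, called lost, against -0.03 in 15376T. They made up 15 of the 28 names of their segment. At a limit of 0.3 they were not called, and the members lost in 14837T went from 309 to 294. On chromosome 10 the 55 genes from Olfr9 to Olfr827 lay just inside the limit in 14837T, at -0.23, and were called neutral; they stood at 0.12 in 15376T. The other 8 members of chromosome 10, from Olfr1358 to Olfr57, were called lost in 14837T at -0.38 and stood at 0.01 in 15376T.

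The calls of chromosome 4 separated its clusters. All 16 members were lost in 15376T, in a single segment at -0.59, as were 100% of the other names of the chromosome. In 14837T the 6 genes from Olfr70 to Olfr155 were gained at 0.33, the 5 from Olfr275 to Olfr267 were neutral at -0.09, and the 5 from Olfr62 to Olfr1339 were lost at -0.39, while 77.3% of the other names were lost and 12.9% gained. These 6 were the members that were lost in one line and gained in the other.

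Gains common to both lines covered the 2 members of chromosome 3, Olfr1402 and Olfr266, at 0.41 and 0.51 in 15376T and 0.45 and 0.39 in 14837T. They also covered 20 of the 56 members of chromosome 19. There 15376T had a border between Olfr1441 and Olfr1442, where the log2 ratio went from 0.42 to -0.03, while all 56 were gained in 14837T at 0.36. Of the other names, 71.1% of chromosome 3 and 45.1% of chromosome 19 were gained in 15376T, and 100% and 99.6% in 14837T. The 37 members of chromosome 17 and the 8 of chromosome 15 were gained in 14837T only, at 0.32 to 0.34, and stood at 0.07 and 0.01 in 15376T. Of the other names, 95.1% of chromosome 17 and 93.5% of chromosome 15 were gained in 14837T too.

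Few segment borders fell inside Olfr clusters, but their share was not below the share of length that the clusters take. Of 164 autosomal borders, 4 (2.44%) fell inside a cluster in 15376T, and of 205, 4 (1.95%) did in 14837T, beside the 1.40% of segment length that the clusters take. No border was shared. Beside those named above, they were at Olfr1298 and Olfr1301 on chromosome 2 in 15376T, where the log2 ratio rose only from -0.09 to 0.01 while the BAF went from 0.31 to 0.09. In 14837T they were at Olfr569 and Olfr570 on chromosome 7 (from -0.34 to -0.54) and at Olfr736 and Olfr744 on chromosome 14 (from -0.65 to -0.31).

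The BAF of the covering segment had a median over members of 0.09 in 15376T, against 0.08 over other names, and of 0.19 in 14837T, against 0.06. With each segment counted once the median in 14837T was 0.07, so its height there came from the large segments of chromosomes 2 and 7, at 0.21 and 0.22. Covered bins stood at a median of 94.6 per Mb around members in 15376T and 103 in 14837T, against 99.5 and 99.0 around other names. These are densities of whole segments, many of which hold mostly other names, so they do not measure the density at the receptors themselves. In segments with mostly Olfr genes the density was 81.1, 84.1 and 216 per Mb in 15376T. In 14837T it was 42.8, 48.4, 82.3, 87.2 and 107 per Mb. By segment the density ran from 49.2 on chromosome 14 to 295 on chromosome 10 in 15376T.

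The gene tables listed only genes of segments with an absolute log2 ratio of at least 0.40, and gave each its own read depth. They listed 318 Olfr genes in 15376T and 241 in 14837T. Almost all were measured by 1 bin: 303 of 318 and 231 of 241, with a median width of 960 bases, while other listed genes had a median of 6 bins. On chromosome 16, Olfr176 and Olfr177 were listed with the same bin, as were Olfr207 and Olfr209, so both genes of such a pair carry the same measurement. The read depth is not divided by the reference, so it compares genes within a library and is no copy number.

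Listed Olfr genes had a higher depth than other listed genes of the same chromosome. In 15376T the depth of the 318 ran from 21.0 through a median of 61.7 to 239. Set against the median of the other listed genes of its chromosome, the median was 0.82 on the log2 scale (quartiles 0.38 and 1.28), 1.76-fold higher, and 291 (91.5%) lay above. In 14837T the 241 ran from 15.8 through 66.4 to 138, with a median of 0.78 (quartiles 0.34 and 1.16), 1.71-fold higher, and 218 (90.5%) above. Other genes measured by 1 bin of 700 to 1300 bases, a comparison chosen after the values were seen, had a median of 0.14 (169 genes, 60.9% above) and 0.16 (120 genes, 64.2% above) on the same scale. Set against these genes of like width on the same chromosome, the Olfr median was 0.64 and 0.54. In 15376T the 20 Olfr genes of chromosome 19 were set against only 1 such gene, with a depth of 22.4. The depth of the receptors ran above that of their chromosome in segments called lost (chromosomes 4, 7, 14 and 16) and in segments called gained (chromosome 19). It did not for Olfr1402 on gained chromosome 3 (-0.13 in 15376T and -0.01 in 14837T) or for Olfr466 on lost chromosome 13 in 14837T (-0.02). The part of GC content and of the capture design in this was not tested.

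**Figure D3:**
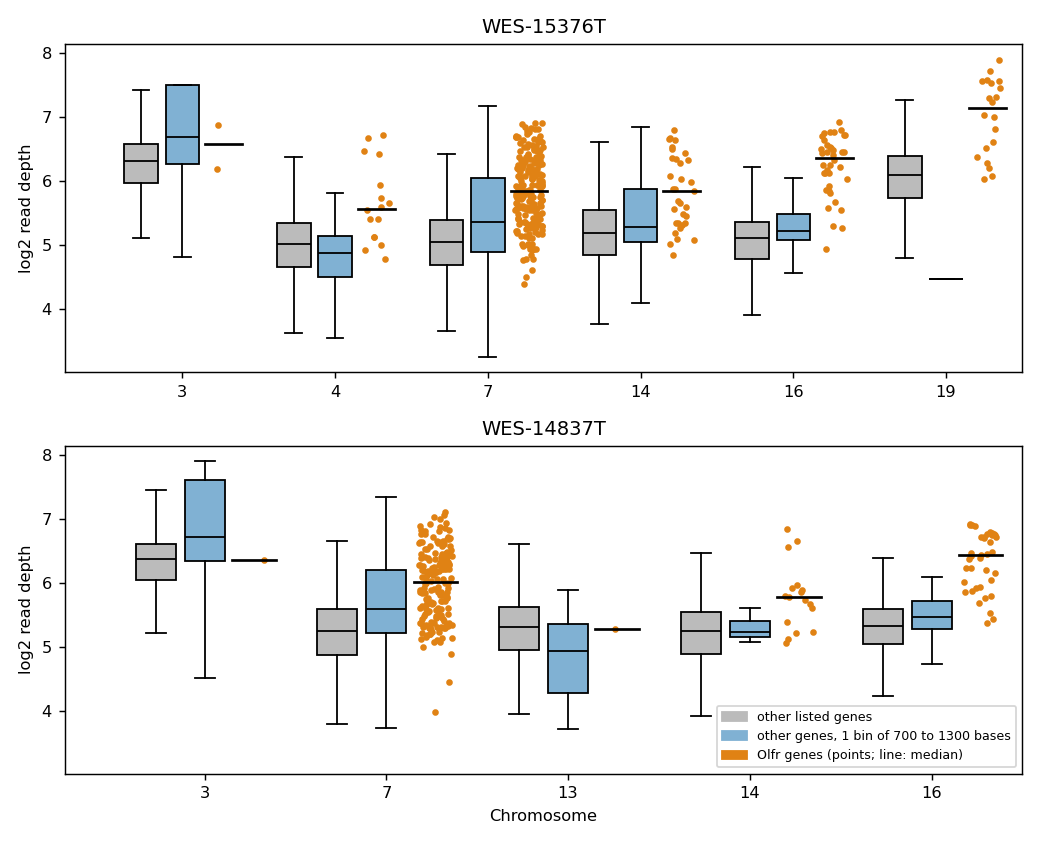
Read depth on a log2 scale (y axis) by chromosome (x axis) in each line, for other listed genes (grey boxes), other listed genes measured by 1 bin of 700 to 1300 bases (blue boxes) and single Olfr genes (orange points, with a black line at their median); boxes span the quartiles, with the median as a line and whiskers to 1.5 times the interquartile range. The Olfr median lies above the grey box's median on every chromosome but 3 and 13 in WES-14837T, where 1 gene each was listed.

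The excess varied between chromosomes. It was largest on chromosome 16, where the 38 genes had a median depth of 82.5 against 34.6 of 662 other genes in 15376T (1.26 on the log2 scale) and 86.2 against 40.0 in 14837T (1.11). On chromosome 7 the median was 57.8 over 209 genes against 33.1 (0.80), and 64.8 over 184 genes against 38.0 (0.77). On chromosome 14 it was 57.3 over 33 genes against 36.6 (0.65), and 55.3 over 17 genes against 38.2 (0.53). In 15376T alone, the 20 gained genes of chromosome 19 had a median depth of 141 against 68.7 (1.03), and the 16 lost genes of chromosome 4 had 47.7 against 32.5 (0.55). The interquartile ranges of Olfr and all other listed genes did not overlap on chromosomes 7, 16 and 19 in 15376T or on chromosome 16 in 14837T. Against other genes with 1 bin of like width they did overlap on chromosome 7 in 15376T (44.3 to 77.4 against 29.6 to 66.0). On chromosome 16 they stayed apart, at 62.0 to 94.4 against 33.8 to 45.2 in 15376T and 62.2 to 107 against 39.1 to 52.6 in 14837T. Chromosome 19 had 1 such gene.

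Within a chromosome the depth differed between clusters, on chromosomes 4 and 7 of 15376T also between clusters of 1 segment. On chromosome 4 in 15376T the 6 genes from Olfr70 to Olfr155 ran from 27.7 to 105 with a median of 87.8. The 4 from Olfr275 to Olfr270 ran from 32.1 to 46.9 with a median of 42.5, and the 5 from Olfr62 to Olfr1339 from 35.0 to 61.8 with a median of 50.6. On chromosome 16, where the clusters lie in different segments, the 27 genes from Olfr172 to Olfr209 had a median of 87.5 in 15376T and 87.6 in 14837T, while the pair of Olfr161 and Olfr15 had a median of 43.6 in 15376T and 52.4 in 14837T. On chromosome 7 the 125 genes from Olfr543 to Olfr692 had a median of 53.2 in 15376T, and the 47 from Olfr693 to Olfr519 had 64.7.

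Only 2 listed Olfr genes had at least 3 bins, the minimum set for naming extremes. Olfr1510 had a depth of 77.9 over 4 bins and Olfr749 had 82.2 over 3, both on chromosome 14 in 15376T. The genes of 1 bin that follow were named after their values were seen. Genes with high relative depth were high in both lines: Olfr516 had a depth of 121 in 15376T and 134 in 14837T, Olfr583 had 119 and 138, Olfr688 had 121 and 127, and Olfr585 had 114 and 130, where other genes of chromosome 7 had medians of 33.1 and 38.0. On chromosome 19 Olfr1425 reached 239 in 15376T, against 68.7. The lowest in both lines were Olfr1349, with 21.0 and 15.8, and Olfr1344, with 22.8 and 21.9. Olfr571 had 24.6 and 32.0, and Olfr616 had 27.4 and 29.6. Olfr1349 and Olfr1344 stand in the same cluster of 8 genes near the start of chromosome 7, whose median depth was 62.7 and 71.3.

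The start of a gene from each end of this range is shown, 50 bases before the annotated start and 50 from it on, with the ATG in capitals. Olfr583 (chr7:103051250-103051349, plus strand) was among the highest and Olfr1349 (chr7:6515378-6515477, minus strand) was the lowest in both lines.
Olfr583: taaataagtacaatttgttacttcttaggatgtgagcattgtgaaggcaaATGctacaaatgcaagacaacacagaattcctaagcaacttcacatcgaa
Olfr1349: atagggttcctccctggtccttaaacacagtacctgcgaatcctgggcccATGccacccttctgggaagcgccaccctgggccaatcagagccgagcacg

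None of the near copies printed above had a depth below the median of the other listed genes of its chromosome. Olfr596 and Olfr603 had depths of 104 and 92.6 in 15376T and 115 and 103 in 14837T. Olfr679 and Olfr681 had 102 and 98.9, and 97.9 and 122. Olfr723 and Olfr724 had 59.1 and 51.6, and 59.2 and 55.6. Over the 12 listed genes of the pairs in 15376T the relative depth ran from 0.50 through a median of 1.25 to 1.65 on the log2 scale. Over the 10 in 14837T it ran from 0.54 through 0.94 to 1.68. The pairs were chosen on windows that lie mostly before the annotated start, while depth was counted over the bins of the genes. Likeness over the bins was not measured, so these depths cannot show whether shared sequence changes the depth of a copy. How the authors counted reads that match more than 1 copy is not given in the sources used here, so the depth of each copy is uncertain.

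The order of the genes by depth was nearly the same in both lines. Over the 240 Olfr genes listed in both, the relative depths had a Spearman rho of 0.94 and a Pearson r of 0.94. These are values across genes, which share segments, and across 2 libraries prepared by the same protocol.

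**Figure D4:**
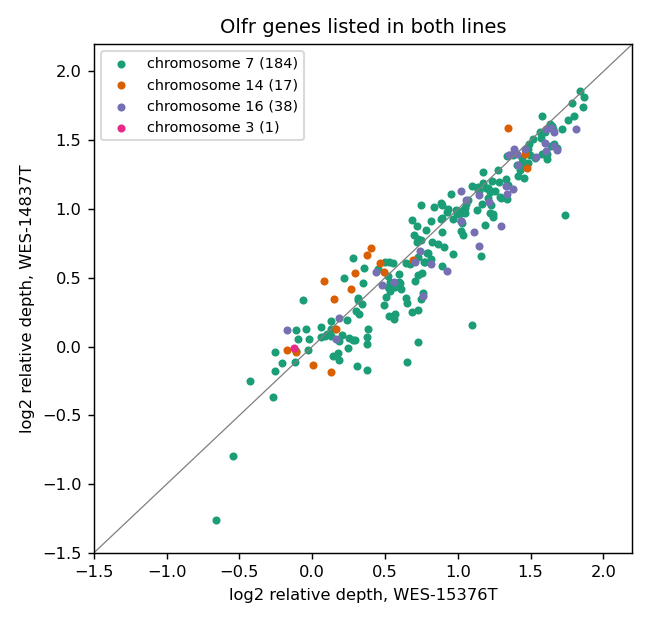
Log2 depth of each Olfr gene relative to the median of the other listed genes of its chromosome, in WES-15376T (x axis) against WES-14837T (y axis), for the 240 genes listed in both lines, colored by chromosome, with the line of equal values in grey. The points lie along the line (Spearman rho 0.94), with Olfr1349 lowest in both lines.

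The ratio of the lines, each depth first divided by the mean autosomal depth of its library (43.4 and 47.5), had a median of 0.01 on the log2 scale and an SD of 0.19 over these genes. Over 2700 other genes the median was -0.04 and the SD 0.23, and over the 424 of these with 1 bin the SD was 0.35. Those bins were narrower, and over the 101 other genes with 1 bin of 700 to 1300 bases the SD was 0.21. When the difference of the segments was taken off, the median deviation was 0.02 on chromosome 7, 0.17 on chromosome 16 (0.06 for other genes) and -0.16 on chromosome 14 (0.05 for other genes). On chromosome 14, 11 of the 17 receptors deviated downwards and 6 upwards, and on chromosome 16, 35 of the 38 deviated upwards and 3 downwards. The 38 include the pairs that share a bin, all of which deviated upwards. Other genes of chromosome 16 with 1 bin of like width had a median deviation of 0.12 (20 genes).

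The 3 highest deviations were those of neighbours. Olfr523 stood at 0.92, with a depth of 70.99 in 15376T and 42.4 in 14837T. Olfr525 had depths of 110 and 73.8, and Olfr522 had 52.1 and 35.2. With Olfr524 (41.0 and 34.5) they form the first part of the cluster from Olfr522 to Olfr536 on chromosome 7. The next gene, Olfr527, had 73.2 and 83.4. At the other end, Olfr509 had 31.8 and 48.0 (-0.47) and Olfr649 had 40.2 and 59.4 (-0.43), and these lay apart from each other.

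The raised ratio around Olfr522 to Olfr525 reached beyond the receptors. In a run of 23 genes from Adgra1 to Olfr525 (chr7:139845528-140323644, 478 kb), chosen after the values were seen, the log2 ratio of the lines was between 0.34 and 0.94 with a median of 0.53. It was between -0.18 and 0.17 in the 7 genes before it and between -0.22 and 0.11 in the 7 after it, 6 of which are Olfr genes. The ends of the run were placed by these values. The run held Adam8, a metalloprotease of cell surfaces, at 0.54, and Tubgcp2, a part of the gamma-tubulin complex, at 0.50. The change from high to low lay between Olfr525 and Olfr527, which are neighbours among the listed genes. Neither line had a segment border there: the segments stood at -0.53 and -0.48 throughout. Since the ratio has only these 2 libraries, a higher value in 15376T and a lower one in 14837T cannot be told apart. Across the 4 chromosomes with Olfr genes in both tables, a running median of 9 genes lay over 0.35 from the median of the chromosome, in either direction, around 37 of the 1194 genes of chromosome 7 (3.10%), which included 4 of its 184 Olfr genes (2.17%). It did so around 15 genes of chromosome 14, where it reached 0.72 against 0.54 on chromosome 7, around 5 of chromosome 3 and around 0 of chromosome 16, with 0 Olfr genes on these 3. A raised run was thus not particular to receptors.

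The starts of the genes on either side of the change are shown in the same way. Olfr525 (chr7:140322651-140322750, plus strand) was the last gene of the run and Olfr527 (chr7:140335814-140335913, plus strand) the first after it.
Olfr525: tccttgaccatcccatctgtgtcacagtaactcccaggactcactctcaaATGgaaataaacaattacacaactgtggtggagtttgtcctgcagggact
Olfr527: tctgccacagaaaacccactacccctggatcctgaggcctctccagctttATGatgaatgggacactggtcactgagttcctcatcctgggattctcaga

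**Figure D5:**
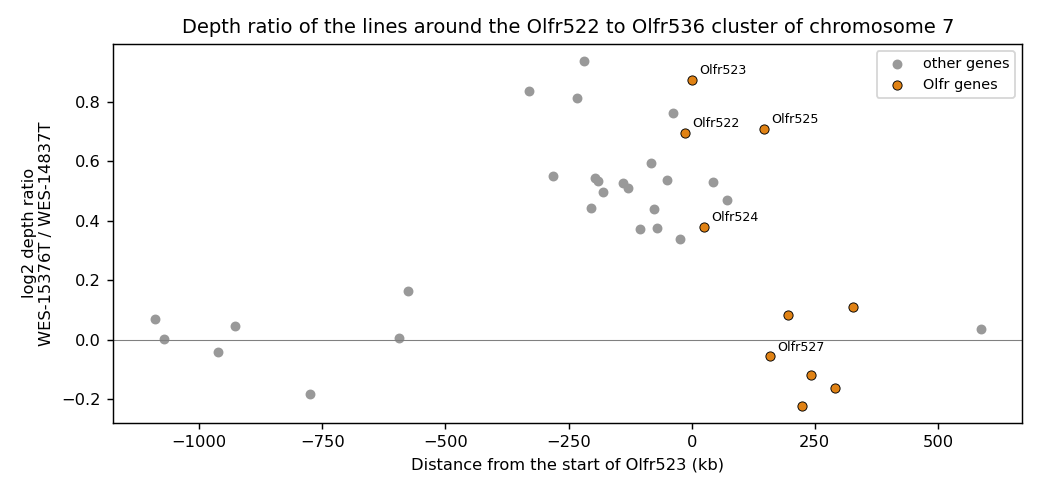
Log2 ratio of read depth of WES-15376T to WES-14837T, each divided by its library's mean depth (y axis), of single genes of chromosome 7 by distance from the start of Olfr523 in kb (x axis), for Olfr genes (orange) and other genes (grey). The 23 genes from Adgra1 to Olfr525 lie between 0.34 and 0.94, and the 7 genes on each side lie between -0.22 and 0.17.

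Of 11 receptors chosen as well studied, 8 were lost and 3 neutral in 15376T, and 7 were lost, 2 gained and 2 neutral in 14837T, beside the background of 30.0% lost in 15376T and of 28.8% lost and 21.4% gained in 14837T. The list holds 4 receptors of chromosome 7 and 2 of chromosome 14, which share their segments' calls. Olfr16 (MOR23), also known from sperm and muscle, was neutral in both at -0.03. Olfr15 on chromosome 16 was lost in both, with a depth of 30.6 and 43.5. Olfr1507 (MOR28) and Olfr1509 (MOR244-3), a receptor for sulfur compounds, were lost in both on chromosome 14, at -0.55 and -0.31, with depths of 68.1 and 58.7 in 15376T. Olfr2 and Olfr17 had depths of 39.5 and 40.5 in 15376T and 39.7 and 39.2 in 14837T, where other genes of chromosome 7 had medians of 33.1 and 38.0. Olfr73, Olfr151 and Olfr160 were the 3 whose call differed between the lines.

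The 14 genes of olfactory signalling and receptor choice are spread over the genome, and 7 were lost, 2 gained and 5 neutral in each line, beside the background of 30.0% lost and 9.09% gained in 15376T and of 28.8% and 21.4% in 14837T. Of the signalling genes, Omp, the marker of mature olfactory neurons, was lost in both lines at -0.53 and -0.34, and so was Gnal, the G protein subunit of the pathway, at -0.56 and -0.44. The cyclase Adcy3 was lost in 15376T at -0.42 and gained in 14837T at 0.20, just past the limit. Of the channel genes, Cnga4 was lost in both (-0.53 and -0.54), Cngb1 was neutral in both (0.11 and 0.05), and the chloride channel Ano2 was gained in 15376T only (0.33 and -0.05). Of the genes that carry receptors to the membrane, Rtp1 and Rtp2 were lost in both at -0.54 and -0.40, and Reep1 was gained in 15376T only, at 0.30 and -0.05. Ric8b, which assists the G protein, stood at -0.14 and was lost in 14837T at -0.57. Of the regulators of receptor choice, Lhx2 (-0.02 and -0.06) and Ebf1 (0.06 and -0.04) were neutral in both. Ldb1 was neutral at 0.07 and gained at 0.48, and the demethylase Kdm1a was lost in both at -0.59 and -0.39.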

How the data were processed

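WES of 15376T and 14837T was done by the authors on genomic DNA, with 1 library per line, on an Illumina NovaSeq. The labels and the methods name different human exome capture kits. The build is mm10 per the labels, and the aligner, caller and reference are not given in the sources used here. The log2 values deposited are ratios of coverage to a reference, the BAF deposited is a fraction, the read depth deposited is a coverage signal without normalization, and the weight deposited is a score that was not used. The authors' integer calls followed log2 limits of -0.25 and 0.2 with 0 exceptions. The mean autosomal depth of 15376T was 43.4 and that of 14837T was 47.5, and 187 names in more than 1 segment were left out of the background.

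Members, clusters, depth relative to other listed genes of the chromosome, and ratios of the lines were computed in Python (3.11.15) with scipy (1.17.1), pandas (2.3.3) and numpy (2.4.6). Figures were drawn in matplotlib (3.10.9). Of the steps, relative depth and the ratio of the lines were tested on simulated data, while members and clusters were not. Windows of 300 bases came from RefSeq on GRCm38.p6, and starts were written counting from 1. Named genes were 11 receptors, 14 pathway genes, the 5 highest and lowest depths and ratios with at least 3 bins, and cluster ends and borders; only 2 genes passed 3 bins, so extremes of 1 bin were named after their values were seen. Members and lists were chosen with earlier results of these data known. An engineered allele of the mice is not reported here.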

Additional observations from a re-analysis of the deposited data

How the results depend on the processing

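Of 40 alternatives, 27 stayed within 1.5 times the reported value (for depth, within 0.2 on the log2 scale) and 13 moved further. Only relative depth and the ratio of the lines could turn direction, as the other measures have no sign, and 0 did. Allowing any number of bins could not change the ratio, as all 240 genes had equal bins in both lines, so its agreement tests nothing. At an absolute log2 of 0.3, 296 members were lost in 15376T, 109 gained in 14837T and 101 had a different call. At 0.5 the lost were 296 and 166, the gained 1 and 0, and 131 had a different call. With log2 recentred on the autosomal median, 296 were lost in 15376T and 166 had a different call. The chromosome 2 segment lay past the limit of the loss call in the deposited calls only, and these alternatives left it neutral by their construction. With each segment counted once, the median BAF in 14837T was 0.0718. The 2 Olfr genes with at least 3 bins had a median relative depth of 1.13 in 15376T; no listed Olfr gene had 3 bins in 14837T, so that alternative and the ratio of the lines at 3 bins gave no value. Against genes of 1 bin and 700 to 1300 bases, chosen after seeing the data, relative depth was 0.54 in 14837T. Without Olfr522 to Olfr525 the ratio of the lines had a median of 0.01 and an SD of 0.17. No paired analysis was possible because there is a single library of either line. The depth of a gene with 1 bin rests on 1 value per line, and clusters at a log2 within 0.4 of 0 have no depth of single genes here.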
